A study of Mus musculus with 7 samples.

Results

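The genes described here are the enzymes of heme synthesis, with the 2 forms of its opening enzyme, Alas1 and Alas2, set against each other, and Hmox1, which breaks heme down. The 9 genes (Alas1, Alas2, Alad, Uros, Urod, Cpox, Ppox, Fech and Hmox1) were picked by name from the 49671 genes of the count table, because an earlier look at these libraries had shown Alas1 and Alas2 on opposite sides. Their group differences are therefore given as descriptions, with no test. All 9 passed the filter on low counts, which left 17144 genes. Messenger RNA came from whole crushed femurs of wild-type mice, so each library mixes bone, marrow and any attached tissue. The groups were uninjured control mice (3 libraries) and mice taken 3 days after a traumatic brain injury, or TBI, given as a controlled cortical impact, a mechanical blow to the brain surface (4 libraries). Values are listed by replicate number, controls before TBI libraries. The ages of the mice are not given in the labels. Nothing in the labels says that the control mice had surgery, so effects of the operation and of the impact cannot be told apart.

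Heme is an iron-holding ring that carries oxygen in hemoglobin and electrons in cytochromes. Its synthesis starts in the mitochondrion, where aminolevulinate synthase joins glycine to succinyl-CoA, passes through the cytosol and ends in the mitochondrion again. Alas2, on the X chromosome, is the form of red-cell precursors and is driven by the erythroid factor GATA1. Alas1 serves other cells and is held down by heme itself. In adult mice the bone marrow is the main site of red-cell production.

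Total counts ran from 15461528 to 21783534 per library, at which 1 count was worth 0.0426 to 0.063 CPM (counts relative to the library total after TMM scaling, an adjustment for RNA composition). The members had between 757 and 46231 counts in a library, so none was near the detection limit. Markers of bone-forming cells were present, with a summed level of 13938 to 35235 CPM over 14 genes, and so were erythroid markers, with 29054 to 59968 CPM over 21 genes. Skeletal muscle markers ranged from 20210 to 122510 CPM and were highest in TBI 3 and TBI 4, which had 96841 and 122510 CPM against 67376 or less in the other libraries.

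The start regions of Alas1 and Alas2 are shown because these genes stood on opposite sides. Both sequences come from RefSeq on GRCm38.p6, where 7 of the 9 members had an entry, and each runs 5′ to 3′ over the 250 bases before a RefSeq transcript start. Alas2 lies on the plus strand at chrX:150547167-150547416, and Alas1 on the minus strand at chr9:106247731-106247980, which precedes the more downstream of its 2 listed starts. In both, capitals mark every match to the GATA-type motif AGATAA, the KLF-type motif CCNCNCCC and the palindromic motif of nuclear respiratory factor 1 (NRF-1), a regulator of genes for mitochondrial proteins. Both strands were searched.
Alas2: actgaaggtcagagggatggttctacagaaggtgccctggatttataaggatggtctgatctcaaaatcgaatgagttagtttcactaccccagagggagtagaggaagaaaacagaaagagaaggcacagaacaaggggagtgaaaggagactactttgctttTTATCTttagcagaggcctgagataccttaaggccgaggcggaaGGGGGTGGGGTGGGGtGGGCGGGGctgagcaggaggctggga
Alas1: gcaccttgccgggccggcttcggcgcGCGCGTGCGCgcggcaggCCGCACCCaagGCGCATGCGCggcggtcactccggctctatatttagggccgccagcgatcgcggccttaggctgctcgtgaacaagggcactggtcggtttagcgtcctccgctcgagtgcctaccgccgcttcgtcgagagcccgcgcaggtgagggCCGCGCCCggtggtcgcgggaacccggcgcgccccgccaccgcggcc
The Alas2 sequence held AGATAA on the opposite strand, beginning 86 bases before the start, and CCNCNCCC 4 times, some of them overlapping, beginning 42, 40, 35 and 26 bases before it. No AGATAA match overlapped a CCNCNCCC match. The Alas1 sequence held the NRF-1 motif 2 times, beginning 224 and 195 bases before the start, and CCNCNCCC also 2 times, beginning 206 and 47 bases before it. Relative to the other listed Alas1 start, the same NRF-1 matches lay at or after the start. CCNCNCCC had a match in at least 1 window of each of the 7 members. AGATAA occurred in 11.2% of 32851 RefSeq windows of 300 bases, CCNCNCCC in 49.5% and the NRF-1 motif in 4.60%. Neither Alas1 window held AGATAA, and the Alas2 window held no NRF-1 motif. Among the other members, Cpox held AGATAA just after its start, and 1 of the 2 Uros windows held the NRF-1 motif beginning 47 bases before the start. A match describes the letters in these windows and not the binding of a factor.

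Alas1 (ENSMUSG00000032786, protein coding, GRCm38 chromosome 9, 106233455 to 106248654, minus strand) was higher in the femurs of injured mice, while Alas2 (ENSMUSG00000025270, chromosome X, 150547375 to 150570638, plus strand) was lower. Alas1 measured 55.015, 54.8 and 53.2 CPM in the 3 control libraries and 81.5, 94.3, 78.3 and 123 CPM in the 4 TBI libraries. The controls lay close together, and every TBI library lay above all of them, with TBI 4 the highest. The group means were 54.3 ± 0.973 CPM (SD, n = 3) and 94.3 ± 20.5 CPM (SD, n = 4), and edgeR's estimate was a log2 fold change of 0.80 ± 0.17 (SE), or 1.74-fold higher. Alas2 measured 2086.5, 1659.9 and 1672 CPM in the 3 control libraries and 1416, 1018, 1151 and 953 CPM in the 4 TBI libraries. Control 1 was the highest and TBI 4 the lowest, and no TBI library reached a control. The means were 1806 ± 243 CPM (SD, n = 3) and 1134.5 ± 205 CPM (SD, n = 4), with a log2 fold change of −0.67 ± 0.20 (SE), or 1.59-fold lower. In bulk tissue, fewer cells of a type and less of an mRNA per cell cannot be told apart.

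The groups did not overlap for 3 of the 9 members, against 8.04% of all tested genes: Alas1 on the higher side (2.66% of all genes) and Alas2 and Ppox on the lower side (5.38%). The estimate was below 0 for 7 of the 9 members and for 45.6% of all genes. Since the members were picked with this contrast in view, nothing is read from these counts. In edgeR's quasi-likelihood test 0 of 17144 genes (0%) passed an adjusted p of 0.05. At an unadjusted p under 0.05 there were 1259 genes (7.34%), of which those higher after TBI were 2.37% and those lower 4.97% of all genes, and DESeq2 called 114 of the 15480 genes to which it gave an adjusted p (0.736%).

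**Figure D1:**
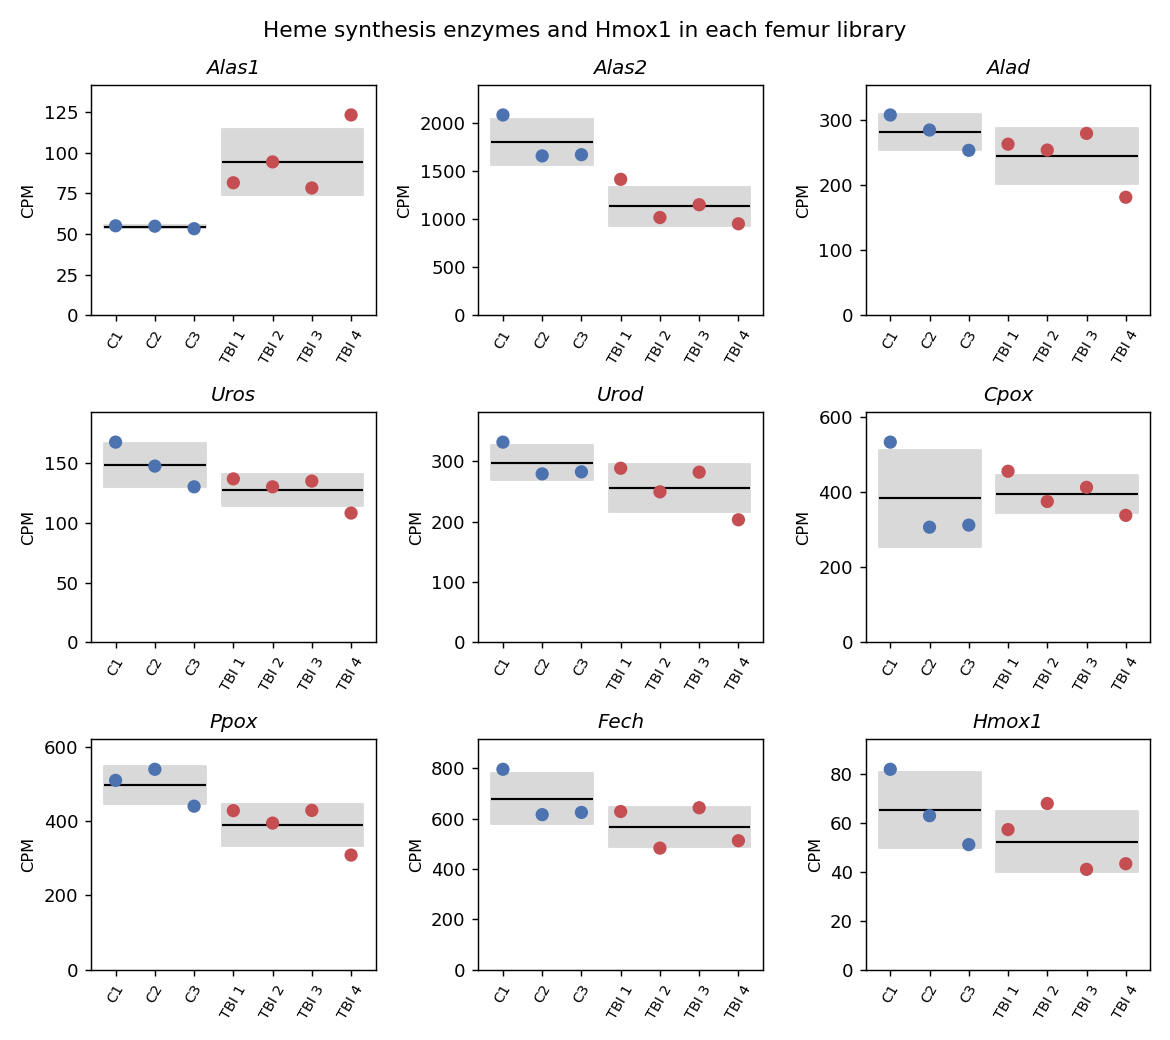
Level of each member in CPM (vertical axes, each starting at 0) in the 3 control (C, blue) and 4 TBI (red) libraries. Points are libraries, black lines group means and grey bands ± 1 SD. Alas1 lies at 53.2 to 55.015 CPM in controls and 78.3 to 123 CPM after TBI, and Alas2 at 1659.9 to 2086.5 and 953 to 1416 CPM.

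Within a library the 2 forms can be set against each other without any scaling between libraries. There were 37.9, 30.3 and 31.4 Alas2 counts for each Alas1 count in the 3 control libraries, against 17.4, 10.8, 14.7 and 7.73 in the 4 TBI libraries. No TBI library reached the lowest control in this ratio, and it was lowest in TBI 4, which had the most Alas1 and the least Alas2. Levels of different genes are compared as TPM, that is, counts per kilobase of annotated exon, scaled to the same total in each library. On that scale Alas1 made up 1.02%, 1.27% and 1.22% of the 2 Alas mRNAs in the 3 control libraries and 2.19%, 3.48%, 2.58% and 4.79% in the 4 TBI libraries. With the longest transcript as the length these shares were 1.56%, 1.94% and 1.87%, against 3.33%, 5.26%, 3.92% and 7.19%. By either length Alas2 was the main form in each of the 7 libraries. Their summed level was 2095 ± 405 TPM (SD, n = 3) for the controls and 1302 ± 354 TPM (SD, n = 4) for the TBI libraries. Nearly all of it was Alas2, and TBI 1 with 1799 TPM came close to control 3 with 1825 TPM.

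**Figure D2:**
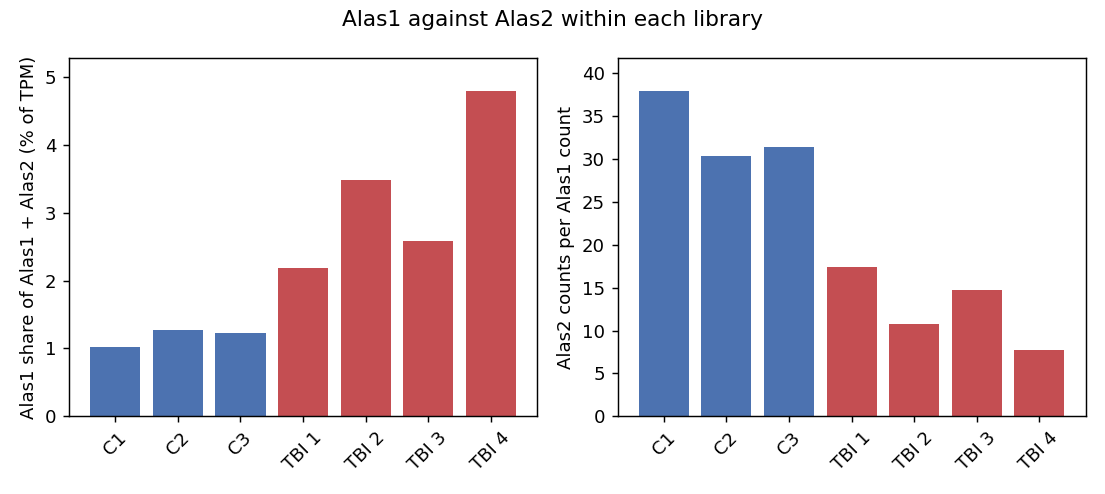
Alas1 as a percentage of summed Alas1 and Alas2 TPM (left) and Alas2 counts per Alas1 count (right) in each library, controls (C) in blue and TBI in red. The share of Alas1 runs from 1.02% to 1.27% in controls and from 2.19% to 4.79% after TBI.

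In level per length, the members ran from Alas2 at the top to Alas1 at the bottom. Averaged over the 7 libraries, Alas2 stood at 1609 ± 552 TPM (SD, n = 7), more than any other member in every library. Next came Alad, which joins aminolevulinate molecules into porphobilinogen, at 377 ± 79.6 TPM, then Urod, which trims uroporphyrinogen to coproporphyrinogen, at 286 ± 59.7 TPM, and Ppox, which oxidises protoporphyrinogen, at 261 ± 59.2 TPM. Alad was above Urod in 7 of 7 libraries and Urod above Ppox in 6 of 7, although the ranges of each pair overlapped across libraries. This order depends on the length used. With the longest transcript in place of all annotated exons, Urod (399 ± 80.2 TPM) was above Alad (319.6 ± 65.3 TPM) in all 7 libraries, and Cpox (274 TPM) passed Ppox (215 TPM) on average. Cpox, which makes protoporphyrinogen, stood at 159 ± 44.8 TPM, Fech, which inserts iron, at 120 ± 26.3 TPM, and Uros, which closes the ring, at 103 ± 21.03 TPM. Fech lay above Uros in 6 of 7 libraries, so these neighbours were not apart beyond their spread. Hmox1 at 90.6 ± 29.5 TPM was below Uros in 5 of 7 libraries, and Alas1 at 33.2 ± 10.01 TPM was below all of them in each library. On average Alas2 and Alas1 were at the top and the bottom by either length. By the longest transcript, however, Alas1 (68.7 TPM) was above Hmox1 (52.4 TPM) in TBI 4. The SDs span both groups.

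The enzymes after the opening step lay close to each other in how they differed between groups, with estimates from −0.35 to 0.04 on the log2 scale and overlapping groups for all members but Ppox. Alad (chromosome 4, 62509169 to 62519918, minus strand) measured 308, 285 and 254 CPM in the 3 control libraries and 263, 254, 279.6 and 181 CPM in the 4 TBI libraries. Apart from TBI 4, the TBI libraries lay within the range of the controls. Its log2 fold change was −0.21 ± 0.17 (SE), and −0.09 without TBI 4. Uros (chromosome 7, 133686243 to 133710072, minus strand) measured 167, 147 and 130.02 CPM in controls and 137, 130.01, 135 and 108 CPM after TBI (−0.22 ± 0.14). Urod (chromosome 4, 116989965 to 116994413, minus strand) measured 332, 279 and 282 CPM in controls and 288, 249.3, 282 and 203 CPM after TBI (−0.22 ± 0.16). For both genes TBI 4 was again the lowest library, TBI 2 lay below the lowest control, only just so for Uros, and TBI 1 and TBI 3 lay inside the control range. The Uros estimate was −0.12 without control 1 and the Urod estimate −0.12 without TBI 4.

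Cpox (chromosome 16, 58670292 to 58717636, plus strand) was the member whose estimate turned when single libraries were left out. It measured 533.5, 307 and 312 CPM in controls and 456, 375, 413 and 338 CPM after TBI, so that control 1 was the highest of all libraries and the other controls were the lowest. Its estimate was 0.04 ± 0.22, moved to 0.35 without control 1, and changed sign without control 2 (−0.09), without control 3 (−0.09) and without TBI 1 (−0.03). Ppox (chromosome 1, 171275990 to 171281186, minus strand) measured 510.5, 540.4 and 441 CPM in controls and 429, 395, 429 and 309 CPM after TBI. Every TBI library lay below every control, with control 3 and TBI 3 the nearest. Its estimate was −0.35 ± 0.16, or 1.27-fold lower. Fech (chromosome 18, 64452914 to 64490251, minus strand) measured 797, 616 and 625 CPM in controls and 629, 483, 644 and 512 CPM after TBI. TBI 1 and TBI 3 lay inside the control range and TBI 2 was the lowest library. The estimate was −0.26 ± 0.18, and −0.13 without control 1. Ppox shares 791 exonic bases with B4galt3 on the opposite strand, which had 634 to 1114 counts against 5862 to 11311 for Ppox. Alas2 shares 311 such bases with Apex2, Alas1 465 with an antisense RNA and Cpox 204 with Gpr15, each of which had far fewer counts than the member. No source used here states whether counting took account of strand, so reads in these stretches cannot be assigned with certainty.

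**Figure D3:**
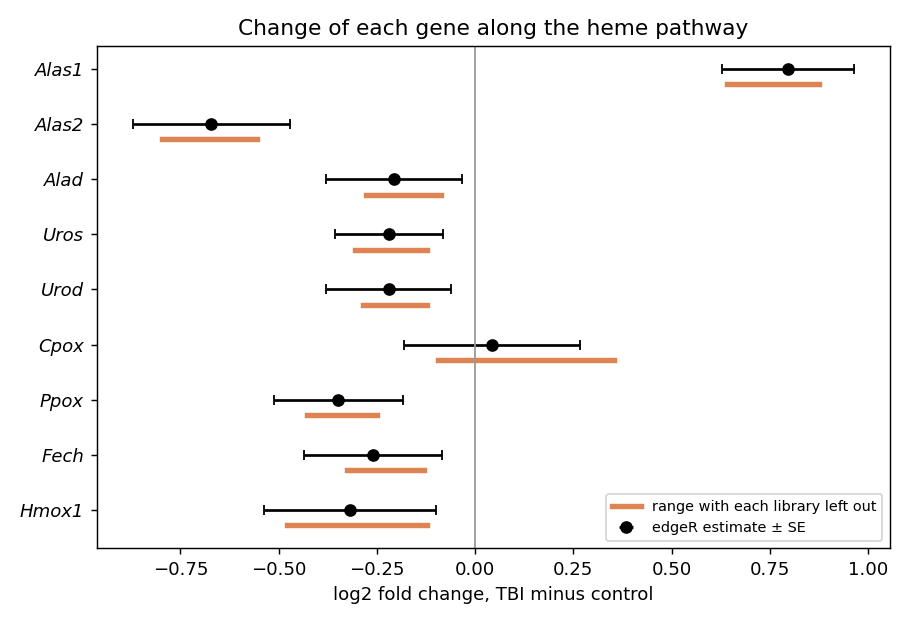
Log2 fold change of each gene, TBI minus control (horizontal axis), in pathway order from top to bottom with Hmox1 last. Points and bars are edgeR's estimate ± SE, and orange lines span the estimates with each library left out in turn. Alas1 stands at 0.80 and Alas2 at −0.67, with the later enzymes between −0.35 and 0.04.

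The share of each later enzyme in their summed level overlapped between the groups. Of the summed TPM of Alad, Uros, Urod, Cpox, Ppox and Fech, Alad made up 28.8% ± 0.936 (SD, n = 3) for the controls and 28.8% ± 1.64 (SD, n = 4) for the TBI libraries. Urod made up 21.97% ± 1.08 and 21.8% ± 0.344, and Uros 7.90% ± 0.167 and 7.92% ± 0.384. Cpox was the least even, with 13.6%, 9.01% and 9.97% in the 3 control libraries and 13.7%, 12.6%, 12.4% and 14.04% in the 4 TBI libraries. Control 1 was the highest library for 5 of these 6 genes and TBI 4 the lowest for 4. The same libraries were highest and lowest in summed erythroid markers, with 59968 CPM in control 1 and 29054 CPM in TBI 4.

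The summed erythroid markers were lower after TBI as well, and the heme enzymes were therefore also expressed per 1000 counts of these markers. Their sum was 59968, 51220 and 50820 CPM in the 3 control libraries and 40021, 35341, 35121 and 29054 CPM in the 4 TBI libraries, with 19 of 21 genes lower. The median of their log2 fold changes was −0.27, against 0.03 over all genes tested. The 4 globin genes and Bpgm, which makes the 2,3-bisphosphoglycerate that tunes oxygen release, had the lowest estimates of the list, from −0.93 ± 0.22 for Hba-a2 to −0.74 ± 0.25 for Hba-a1, and Bpgm stood at −0.79 ± 0.15. In edgeR 0 of the 21 passed. The unadjusted p was under 0.05 for 6 of them, all lower, namely these 5 and the blood group antigen gene Kel (−0.42 ± 0.17, singled out after its value was seen), and DESeq2 called the 5. Over all tested genes 4.97% were lower at an unadjusted p under 0.05, and 45.6% had an estimate below 0. DESeq2 called 0.736% of the genes to which it gave an adjusted p. The groups did not overlap for the 6 genes with an unadjusted p under 0.05, against 5.38% of all genes on the lower side. They overlapped for the other markers. Without the 4 globin genes the summed level of the list overlapped between the groups. The globin copies are near identical and may exchange reads.

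Alas2 overlapped between the groups when set against all erythroid markers, most of whose counts are globins, and did not when the globins were left out. It had 34.8, 32.4 and 32.9 counts per 1000 erythroid marker counts in the 3 control libraries and 35.4, 28.8, 32.8 and 32.8 in the 4 TBI libraries, and the groups overlapped. With the 4 globin genes left out of the denominator it had 132, 139.9 and 149 counts per 1000 in controls and 106, 105, 97.8 and 96.6 after TBI, and every TBI library was lower. For Alad, Uros, Urod, Ppox and Fech the arrangement was the reverse. Every TBI library was higher against all markers, and the groups overlapped without the globins. Cpox was higher in every TBI library by both measures. Urod had 5.51 ± 0.0573 counts per 1000 erythroid marker counts (SD, n = 3) for the controls and 7.32 ± 0.480 (SD, n = 4) for the TBI libraries, with no overlap, but 23.3 ± 2.08 and 22.9 ± 2.29 once the globins were left out. Alad had 22.1 ± 2.29 and 21.975 ± 3.59 counts per 1000 without globins, Uros 11.5 ± 0.903 and 11.5 ± 1.35, and Fech 52.7 ± 2.68 and 50.8 ± 3.28, all with overlapping groups. Cpox, with 29.2 ± 4.15 and 35.5 ± 2.11, was higher in every TBI library by that measure, although control 1 (33.8) lay next to TBI 1 (34.1). Alas1 was higher after TBI by either denominator, with 4.29 ± 0.691 and 8.73 ± 2.96 counts per 1000 without globins.

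**Figure D4:**
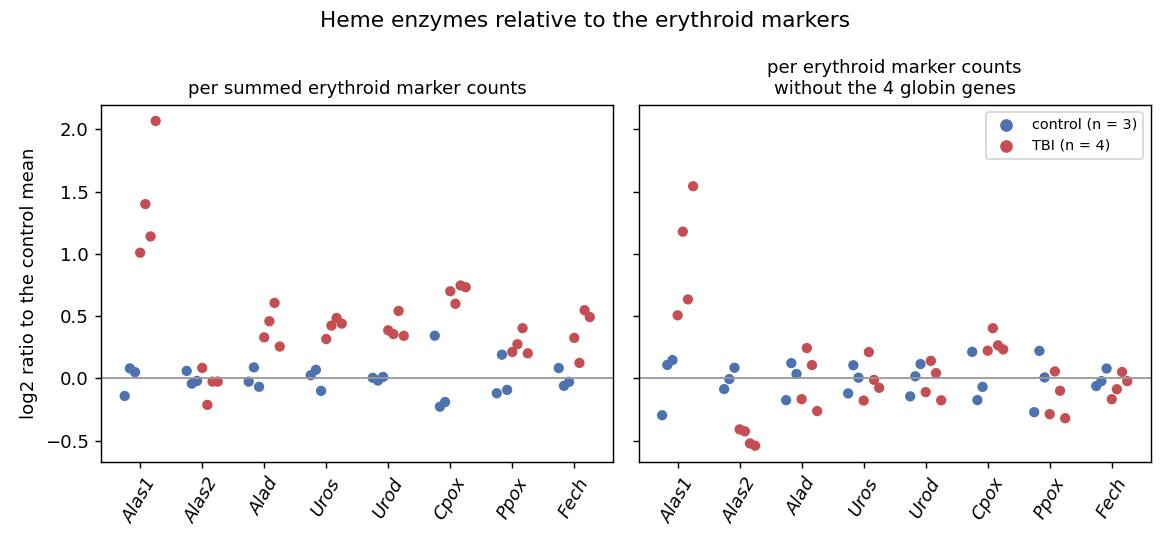
Counts of each heme enzyme per summed erythroid marker counts (left) and per the same sum without the 4 globin genes (right), as the log2 ratio to the control mean (vertical axis). Each point is a library, 3 control (blue) and 4 TBI (red). Alas2 overlaps between groups on the left and is lower after TBI on the right, while Alad, Uros, Urod, Ppox and Fech overlap on the right.

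Hmox1, the inducible enzyme that opens the heme ring to biliverdin, iron and carbon monoxide (ENSMUSG00000005413, chromosome 8, 75093621 to 75100589, plus strand), overlapped between the groups. It measured 82.0, 63.0 and 51.2 CPM in the 3 control libraries and 57.3, 68.0, 41.0 and 43.4 CPM in the 4 TBI libraries. TBI 3 and TBI 4 were below all controls, whereas TBI 1 and TBI 2 lay among them. The means were 65.4 ± 15.6 CPM (SD, n = 3) and 52.4 ± 12.6 CPM (SD, n = 4), with an estimate of −0.32 ± 0.22 (SE) that was −0.12 without control 1 and −0.48 without TBI 2. Its spread inside the groups was 0.34 on the log2 scale, the widest of the members, against 0.17 for Uros, the narrowest. Macrophage markers, the list of a cell type that recycles heme from old red cells, summed to 667, 574 and 542 CPM in controls and 810.2, 574, 476 and 538 CPM after TBI. Of these 16 genes 10 were higher and 6 lower (median 0.07), and 0 passed in edgeR (0 at an unadjusted p under 0.05, 0 in DESeq2).

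Among 11 tested genes of heme breakdown, transport and scavenging, 3 were higher and 8 lower, with a median of −0.12. No gene of the list was called in edgeR (0) or DESeq2 (0), and 3 had an unadjusted p under 0.05, 1 higher and 2 lower. Over all tested genes 7.34% had such a p (2.37% higher and 4.97% lower), and 45.6% had an estimate below 0. Lrp1, a receptor that takes up hemopexin with its heme, stood at −0.41 ± 0.15 (345 ± 23.5 CPM in controls, n = 3, and 259 ± 34.6 CPM after TBI, n = 4), with every TBI library lower. Flvcr2, a membrane transporter, was scarce at 3.92 ± 1.104 and 2.50 ± 0.158 CPM (−0.64 ± 0.24, and −0.41 without control 2). Hp, which binds free hemoglobin in plasma, stood at 0.93 ± 0.36, with 127, 72.8 and 94.2 CPM in controls and 295, 199, 96.5 and 158 CPM after TBI. In TBI 3 it lay within the control range.

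Of the 16 partners of heme synthesis, which carry glycine, iron and porphyrins across the mitochondrial membrane or handle iron-sulfur clusters, 10 were lower and 6 higher (median −0.11 on the log2 scale). In edgeR 0 passed and 1 had an unadjusted p under 0.05, against 7.34% of all tested genes. That 1 gene was Slc25a39, a mitochondrial carrier needed for heme synthesis and glutathione import. DESeq2 called Slc25a39, and 0.736% of the genes to which it gave an adjusted p. Slc25a39 was lower after TBI. It measured 287, 241 and 242 CPM in controls and 194, 175, 190.1 and 154 CPM after TBI, so all TBI libraries were lower (−0.53 ± 0.14). Slc25a38, the glycine carrier that supplies the Alas step, stood at −0.30 ± 0.14 and also had no overlap, with 137 to 157 CPM in controls and 93.8 to 127 CPM after TBI.

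The 23 listed regulators of heme genes all had estimates nearer to 0 than Alas1 and Alas2, a difference that was not tested. Some of these estimates were imprecise, such as Ppargc1a at 0.56 ± 0.59 and Nr1d1 at 0.44 ± 0.51. Both were picked out after their values were seen, and with such SEs their distance from Alas1 is uncertain. Of 10 erythroid regulators 9 were lower, with a median of −0.18. Neither edgeR (0) nor DESeq2 (0) called any of them, and 2 had an unadjusted p under 0.05, both lower. Over all tested genes 4.97% were lower at that level, and 45.6% had an estimate below 0. Epor, the erythropoietin receptor, stood at −0.41 ± 0.16, and Ldb1, a bridging partner of GATA1 complexes, at −0.34 ± 0.15, both with every TBI library lower. Lmo2 stood at −0.20 ± 0.16, and at −0.05 without control 1. Gata1 itself, at −0.13 ± 0.17, and Klf1, at −0.19 ± 0.21, were picked out with their values in view. Without control 1 they stood at −0.01 and 0.06, so that Klf1 changed sign. Of 13 genes that sense heme, iron or oxidants or act on Alas1, 8 were higher and 5 lower (median 0.09), and 0 passed in edgeR (0 at an unadjusted p under 0.05, 0 in DESeq2). Bach1, the heme-binding repressor of Hmox1, stood at 0.21 ± 0.15 (0.08 without TBI 1), and its partners Maff and Mafk at −0.44 ± 0.23 and −0.21 ± 0.12 (Mafk −0.12 without control 1). Of 10 genes activated by NRF2, which also induces Hmox1, 4 were higher and 6 lower (median −0.06), with 0 passing in edgeR, 0 at an unadjusted p under 0.05 and 0 in DESeq2. Nqo1, a quinone reductase, stood at −0.28 ± 0.15. G6pdx, which supplies NADPH, stood at 0.42 ± 0.28, and at 0.18 without TBI 1. Slc7a11, a cystine carrier, measured 0.903, 0.441 and 0.209 CPM in controls and 2.35, 0.809, 0.488 and 0.843 CPM after TBI. Its estimate of 1.09 ± 0.66 was 0.44 without TBI 1, 0.72 without control 3 and 1.81 without control 1.

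Markers of other cell types also differed between libraries, and their part in the Alas1 and Alas2 values was not tested. Late neutrophil markers summed to 5376, 3605 and 3582 CPM in the 3 control libraries and 12986, 8269, 2468 and 6990 CPM in the 4 TBI libraries, with 14 of 15 genes higher (median 0.97). The sum was highest in TBI 1 and lowest in TBI 3, where it lay below the controls. Neutrophil precursor markers summed to 732 to 1116 CPM in controls and to 2616, 2001, 693 and 1462 CPM in the TBI libraries, with 10 of 10 genes higher (median 0.94). Tuba8 on that list did not follow the others, being highest in TBI 3 and TBI 4 as the muscle markers were. Skeletal muscle markers summed to 20210, 39333 and 67376 CPM in controls and 24011, 37470, 96841 and 122510 CPM after TBI, with 15 of 15 genes higher (median 0.70). TBI 1 and TBI 2 lay inside the control range for muscle, and TBI 3 and TBI 4 above it. Adipocyte markers were highest in TBI 3 and TBI 4, at 1372 and 1027 CPM against 420.4 to 673 CPM in controls, with 10 of 10 tested genes higher (median 0.84). TBI 1 and TBI 2 lay within the control range.

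None of the neutrophil, muscle or adipocyte markers had 0 counts in all 7 libraries. In edgeR 0 genes of these 4 lists passed. At an unadjusted p under 0.05 there were 1 of the late neutrophil genes, 0 of the precursor genes, 0 of the muscle genes and 2 of the adipocyte genes, and DESeq2 called 0. These were all higher, as were 2.37% of all tested genes at that level. B-cell markers summed to 203 to 338 CPM in controls and 73.6 to 245 CPM after TBI and were lower in 12 of 12 genes (median −0.74). Megakaryocyte markers summed to 1197 to 2287 CPM in controls and 1522 to 2625 CPM after TBI and were higher in 10 of 10 (median 0.36). In both lists 0 passed in edgeR (0 at an unadjusted p under 0.05, 0 in DESeq2). Osteoblast markers summed to 21555 to 35235 CPM in controls and 13938 to 19005 CPM after TBI, without overlap. They were lower in 14 of 14 (median −0.74), with Alpl at −0.67 ± 0.14, Sp7 at −0.79 ± 0.17 and Pth1r at −0.72 ± 0.15. DESeq2 called 6 of them and edgeR 0, with 12 at an unadjusted p under 0.05, all lower. Over all tested genes 4.97% were lower at an unadjusted p under 0.05, and 45.6% had an estimate below 0. DESeq2 called 0.736% of the genes to which it gave an adjusted p. The list was chosen with earlier results known, so nothing is read from these counts.

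**Figure D5:**
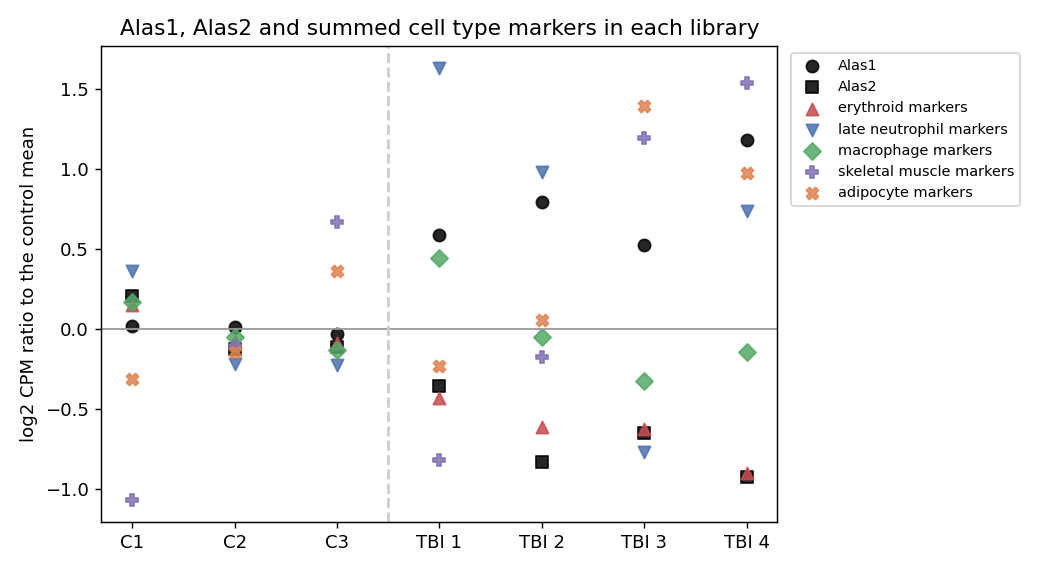
Alas1, Alas2 and the summed markers of 5 cell types in each library, as the log2 CPM ratio to the control mean (vertical axis); the dashed line parts controls (C) from TBI. In the TBI libraries Alas1 runs from 0.53 to 1.18 and Alas2 from −0.92 to −0.35, late neutrophil markers from −0.76 to 1.63 and muscle markers from −0.82 to 1.53.

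The genes whose pattern over the 7 libraries was most like that of Alas2 included a globin, Hbb-bs. Likeness was measured as the root mean square difference of log2 CPM after subtracting each gene's own mean, over 10362 protein-coding genes with a mean of at least 8 CPM, predicted genes, mitochondrial genes and antigen receptor segments left out. The closest was Tent5c, a poly(A) polymerase, with a difference of 0.072, followed by Hbb-bs (0.080), the ubiquitin-conjugating enzyme Ube2l6 (0.091) and Mkrn1 (0.104). Tent5c measured 718, 549 and 571 CPM in the 3 control libraries and 511, 309.9, 397 and 331 CPM in the 4 TBI libraries, and thus followed Alas2 in having TBI 1 as the highest TBI library. Among the members, Ppox was nearest to Alas2 (0.226) and Cpox farthest after Alas1 (0.407). The genes most like Alas1 were less close, with Msantd3 at 0.156, Rcsd1 at 0.193, Fmo5 at 0.210, Lamtor4 at 0.213 and the sterol carrier Scp2 at 0.214. Fmo5, a flavin monooxygenase, measured 13.9, 13.1 and 14.5 CPM in controls and 24.3, 18.6, 19.5 and 24.0 CPM after TBI. These genes were found by a search over the same libraries, so their likeness is a description, and it says nothing of shared control.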

How the data were processed

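Messenger RNA of 7 femur libraries (3 control, 4 TBI) was sequenced after preparation with a stranded kit, per the labels' protocols. The authors deposited raw read counts per gene, which were used for all fits, and a table of log2-scale normalized values, deposited without a stated transformation, used only as an alternative. STAR, DESeq and GRCm38 are named in the submitters' processing notes; no source used here names the counting step or its use of strand. Symbols, positions and exon lengths came from GENCODE M21 (GRCm38), which matched 99.3% of 49671 identifiers. Counts were filtered with filterByExpr (17144 genes), scaled by TMM and fitted with edgeR 4.0.16 (R 4.3.3) by the quasi-likelihood F-test, with Benjamini-Hochberg adjustment over all tested genes. The SE comes from the estimate and its F statistic. DESeq2 1.42.0 and limma-voom (limma 3.58.1) were alternatives. No pair of replicates was alike within counting noise (chi-square per degree of freedom 27.2 or more). The labels do not say that replicates were separate animals, so the p-values reflect spread among these samples, which may be technical. Libraries carry no batch label.

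The members and the 15 further gene lists (201 genes) were chosen with earlier results of these data known. Named genes were the members, the 3 genes of each list with the smallest p, the 5 genes most like Alas1 and Alas2, and the most abundant erythroid, neutrophil and macrophage markers. Mpo stands on 2 of the lists. Some genes that this rule names are not reported here.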

Additional observations from a re-analysis of the deposited data

How the results depend on the processing

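Alas1 kept its direction under all 15 alternatives, with estimates from 0.64 to 0.88, and Alas2 under the same 15, from −0.80 to −0.55; leaving out each library in turn gave 0.64 to 0.88 and −0.80 to −0.55. Alad, Uros, Urod, Ppox, Fech and Hmox1 also kept their direction under all 15, and Cpox under 11. DESeq2 called 114 genes against 0 in edgeR, and 14 members and listed genes against 0; these 14 include Alas1 and Alas2, which were chosen on this contrast. Under the other alternatives, which changed scaling, filter or tool or left out a library, the count stayed at 0. Scaling by upper quartile moved the median of all genes from 0.03 to −0.01. Alas2 per erythroid marker count differed by −0.04 (log2 of the ratio of means), and this value ran from −0.09 to 0.01 without single libraries. When the 4 globin genes were left out of the markers, the difference was −0.47. With the longest transcript as the length, 4 of the 9 members changed place in the order of levels, with Alas1 at 48.5, Alad at 319.6, Ppox at 215, Uros at 135, Urod at 399, Cpox at 274 and Fech at 203 TPM. When likeness was measured on deviations from the group means, 1 of the 10 genes most like Alas1 and Alas2 (Msantd3) remained. The labels do not say that replicate numbers pair the samples. The correlations of same-numbered deviations were 0.549, −0.0277 and 0.322, and those of differently numbered ones ran from −0.45 to 0.393. With so few libraries of mixed tissue, these values cannot decide whether samples were paired. The fit with the replicate number as a block called 0 genes and 0 members or listed genes, and gave 0.64 for Alas1 and −0.60 for Alas2. The authors' log2 values, an alternative chosen after seeing the data, gave differences of 0.76 and −0.67.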

Other observations

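A list of 18 hemoprotein genes was drawn up for cells other than red cells. In bulk tissue, expression of these genes in red-cell precursors cannot be told apart. Whether their heme came by way of Alas1 was not tested. Of the 18 genes 11 were higher and 7 lower after TBI (median 0.19 on the log2 scale). In edgeR's quasi-likelihood test 0 passed (0 at an unadjusted p under 0.05, 0 in DESeq2). Cybb, the heme-binding core of the phagocyte oxidase, measured 106, 75.02 and 79.3 CPM in controls 1 to 3 and 274, 162, 61.7 and 131 CPM in TBI 1 to 4. Mpo, the peroxidase of neutrophil granules, measured 341, 252 and 213 CPM in controls and 756, 647, 182 and 381 CPM after TBI. For both genes TBI 3 was the lowest of the 7 libraries, which was also the library with the fewest late neutrophil markers. Gucy1b1, the heme-binding subunit of soluble guanylate cyclase, stood at 0.36 ± 0.22 with overlapping groups, and at 0.64 without control 1 and 0.24 without control 2.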
